A study of Mus musculus with 15 samples.

Results

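A group of 10 genes whose products switch MAP kinase signalling off was followed in mouse hearts carrying a lamin mutation: the MAP kinase phosphatases Dusp1, Dusp4, Dusp5, Dusp6 and Dusp8, the Sprouty genes Spry1, Spry2 and Spry4, and the Sprouty-related genes Spred1 and Spred2. They were taken by name, as every probe set (a group of short probes that read 1 transcript) of an Affymetrix expression array that the platform annotation gives to exactly 1 of these symbols. The 10 genes, of 18194 genes named by 1 symbol on the array, had 27 probe sets. The groups were 8 male control mice and 7 male mice heterozygous for Lmna H222P, all 10 weeks old, with 1 array of whole heart total RNA per mouse. Lmna encodes lamins A and C, structural proteins under the nuclear envelope, and H222P changes a single residue of both, in a form of muscular dystrophy that affects the heart. The labels name neither the strain nor the genotype of the controls, and litters or batches are not mentioned. The p-values therefore describe only how these 15 mice varied.

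MAP kinases are switched on by phosphorylation of a threonine and a tyrosine in their activation loop, and dual-specificity phosphatases switch them off by removing both phosphates. Dusp1, Dusp4 and Dusp5 are nuclear enzymes, Dusp6 is cytoplasmic and prefers ERK, and Dusp8 prefers JNK and p38. Sprouty and Spred proteins act further upstream, between growth factor receptors, RAS and RAF. Most of these genes are themselves transcribed in response to MAP kinase activity, so that their transcripts are widely used as a readout of ERK signalling, and ERK activity has been examined in hearts with lamin mutations.

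None of the 10 genes differed between the groups past the threshold. Of the 27 probe sets, 24 had enough signal to be tested (a log2 signal above 4 on at least 7 of 15 arrays, without regard to group), and 0 of 24 passed limma's moderated test at a Benjamini-Hochberg adjusted p of 0.05 over the whole table. The same test called 98 of 38870 probe sets, or 0.252%, of which 35 were higher and 63 lower in heterozygous hearts. That split was 51 and 14 with arrays centred on their own medians, which moved the median difference of all probe sets from -0.11 to 0.10, and 37 and 28 after quantile normalization. At an unadjusted p under 0.05 there were 3 of 24 member probe sets, or 12.5%, against 14.6% of all tested probe sets, so the members' share lay near the background. These 3 were the single probe set of Dusp4, higher in heterozygous hearts, and 1 probe set each of Dusp8 and Spry4, both lower; an unadjusted p under 0.05 was reached by 4.44% of all probe sets on the higher side and 10.1% on the lower. Differences were above 0 in 11 of 24 member probe sets and in 39.9% of all. Their median difference (heterozygous minus control, log2 signal) was -0.05, beside -0.11 over all. In none of the 24 were the groups free of overlap, which they were in 0.468% of all probe sets. The smallest adjusted p was 0.163, for Dusp4. The background count of 98 became 27, 32, 27, 24, 52, 55 and 17 without control arrays 1 to 7 in turn, and 40, 20, 54 and 150 without heterozygous arrays 1, 4, 6 and 7, while the members' count was 0 in each of these fits.

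**Figure D1:**
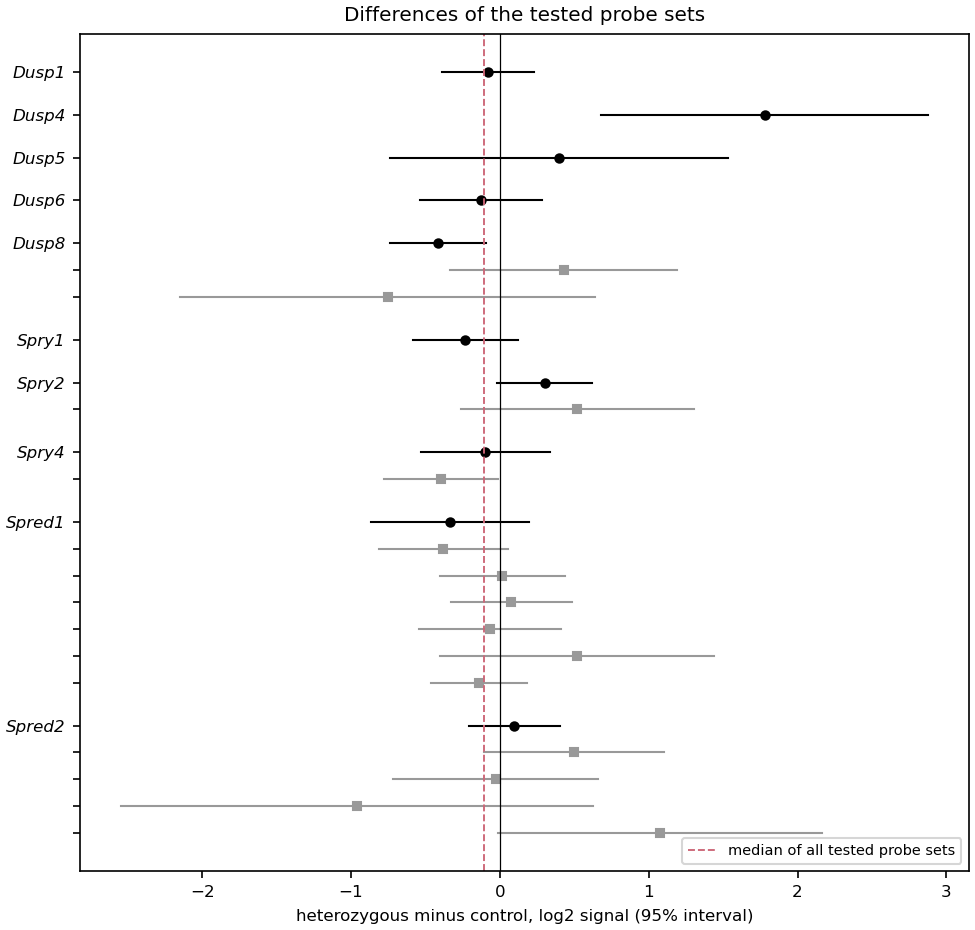
Difference between heterozygous and control hearts in log2 signal (horizontal axis) for the 24 tested probe sets, with 95% intervals from limma; black circles are the brightest probe set of a gene, grey squares its other probe sets, and the dashed line is the median of all tested probe sets. Most intervals cross 0, and those of Dusp4, of the brightest Dusp8 probe set and of the second Spry4 probe set do not.

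The array signals are deposited intensities in arbitrary units, scaled to a common trimmed mean, and array medians lay between 56.7 and 94.2 units. Ventricular muscle genes marked all samples as heart: the 9 listed markers summed to between 155732.7 and 453322.6 units on control arrays and between 122264 and 309168.7 on heterozygous arrays. Marker signals of some other tissues differed between the groups. The 11 tested atrial markers summed to 7688.2 to 12449.7 units in controls and 12062.3 to 43181.1 in heterozygous hearts, with 3 passing higher and 8 above 0. The 6 tested erythroid and blood markers summed to 3440.7 to 4329.8 and to 1747.5 to 3374 units, with 2 passing lower and 0 above 0. No tested marker of either set was below the array median on every array. Mean log2 signal differed by 1.52 for the atrial list and -0.99 for the blood list (adjusted p = 0.00404 in both, exact two-sided permutation tests over 8 and 7 arrays, adjusted over 13 values). The smooth muscle and pericyte list differed by 0.37 (adjusted p = 0.0256, same test), but not in all its members. Of its 8 tested markers 0 passed and 5 were above 0, while Rgs5, Cspg4 and Pdgfrb differed by -0.43, -0.30 and -0.01. Its sums overlapped, at 15749.2 to 19120.2 units in controls and 15937.2 to 20769.7 in heterozygous hearts. The array median and the 3' to 5' signal ratio of Actb, a sign of RNA quality, differed by -0.21 and 0.28 on the log2 scale (adjusted p = 0.0822 and 0.389, same test). These marker lists were written with earlier results known. The blood mean did not overlap between the groups, with controls from 8.04 and heterozygous hearts up to 7.80. The atrial mean overlapped little, with controls up to 8.57 and heterozygous hearts from 8.36. The fits below with either mean as a covariate therefore cannot tell apart genotype and these marker signals, whose part was not tested. In whole heart, fewer cells of a type and less RNA per cell cannot be told apart.

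Some stretches before an annotated start hold matches to the motifs of factors that MAP kinase pathways act on. Such matches were found in 3 of the phosphatase genes and in Spred2. The upstream sequences of Dusp1 and Dusp5 are shown for that reason. Both are the 250 bases before the annotated start, from RefSeq on build GRCm38.p6, written 5' to 3' on the gene's own strand. Dusp1 is chr17:26508473-26508722 on the minus strand and Dusp5 chr19:53528895-53529144 on the plus strand. Capitals mark cyclic AMP response elements (CRE, TGACGTCA, and its shorter core TGACG on either strand, which lies inside the full motif) and CArG boxes, to which serum response factor binds together with ERK-phosphorylated partners such as ELK1.
Dusp1: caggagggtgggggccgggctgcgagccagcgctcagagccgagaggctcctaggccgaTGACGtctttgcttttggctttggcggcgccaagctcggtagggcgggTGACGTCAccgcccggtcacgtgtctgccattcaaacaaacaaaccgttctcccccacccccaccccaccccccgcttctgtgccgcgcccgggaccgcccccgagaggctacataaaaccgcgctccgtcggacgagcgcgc
Dusp5: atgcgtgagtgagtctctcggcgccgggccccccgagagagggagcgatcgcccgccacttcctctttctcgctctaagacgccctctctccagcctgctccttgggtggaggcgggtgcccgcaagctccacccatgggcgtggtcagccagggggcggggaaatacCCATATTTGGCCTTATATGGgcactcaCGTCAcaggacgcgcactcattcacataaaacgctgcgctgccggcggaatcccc
Dusp1 had a full CRE 143 to 136 bases before its start and another core at 191 to 187. Dusp5 had 2 CArG boxes side by side, CCATATTTGG at 82 to 73 bases and CCTTATATGG at 72 to 63 bases before its start, and a CRE core at 55 to 51. Dusp8 held 2 full CREs, at 107 to 100 and at 63 to 56 bases before the start used for it. That stretch, chr7:142095285-142095534 on the minus strand, lies inside the gene span in the RefSeq table, 142079487-142095907. The outermost annotated start of Dusp8 is thus further upstream, and its CREs do not lie before it. Spred2 had a CRE core alone, at 51 to 47 bases before its start. The table held such stretches for 8 of the members, all but Dusp4 and Spry4. On both strands, 2 of 8 held a full CRE, 4 of 8 its core and 1 of 8 a CArG box, beside 1.55%, 17.8% and 1.47% of all 32851 stretches of that length. None of the 8 held the AP-1 motif TGANTCA, the ETS motif CCGGAAG or the EGR motif GCGTGGGCG, found in 6.75%, 6.91% and 0.536% of all, nor TATAAA, found in 12.4%. The SP1 motif GGGGCGGGG, in 10.4% of all, was in Dusp5 alone of the 8 and is left in lower case. A match is a run of letters and says nothing of binding in these hearts.

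Among the nuclear phosphatases, Dusp1, which inactivates ERK, JNK and p38 and is rapidly induced by stress, had strong and even signals. In units, control hearts 1 to 8 gave 2628.7, 3291.8, 3180.7, 4000.9, 3679.3, 2673.4, 3007.1 and 2859.1, and heterozygous hearts 1 to 7 gave 2778.7, 2965.6, 2498.1, 3527.5, 3019, 2439.9 and 3796.9. The groups covered nearly the same range, with heterozygous hearts 3 and 6 below every control and control 4 above every heterozygous heart. The ratio of geometric means, heterozygous over control, was 0.947 (95% interval 0.765 to 1.17; limma adjusted p = 0.836), and the log2 difference of -0.08 was 0.13 after centring arrays on their median.

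Dusp4, a nuclear phosphatase of ERK and JNK induced by growth factors, had the largest log2 difference of the members as deposited, but not once low signals were set to a floor. Its control signals were 10.9, 22.4, 12.9, 30.6, 16.7, 4.3, 31.5 and 40.9 units in hearts 1 to 8, and its heterozygous signals 132.6, 94.2, 16.2, 32.3, 107.1, 66.3 and 61.4 in hearts 1 to 7. Heterozygous hearts 1, 2, 5, 6 and 7 lay above every control, heart 4 lay among the controls and heart 3 was as low as the weaker ones. Mean log2 signals were 4.13 ± 1.05 (SD, n = 8) and 5.91 ± 1.07 (SD, n = 7), a difference of 1.78 with a standard error of 0.52. The ratio was 3.43 (95% interval 1.60 to 7.36), with limma's adjusted p = 0.163 and rank 856 by p among the 38870 probe sets. These are weak signals: 0 of 8 control arrays and 4 of 7 heterozygous arrays exceeded their own array's median. With every signal under a log2 of 6 set to 6, the difference was 0.34 (limma adjusted p = 0.318), smaller in size than, among others, -0.53 for 1 probe set each of Spred2 and Dusp8 and -0.42 for the brightest of Dusp8. Without heterozygous array 3 the difference was 2.09 (limma adjusted p = 0.0881), and without control array 6, the lowest, it was 1.49 (limma adjusted p = 0.207). With the atrial or the blood mean as a covariate it was 3.73 or 3.00 (limma adjusted p = 0.418 and 0.913), and 2.03 with the Actb ratio (limma adjusted p = 0.114). Dusp4 has no other probe set in the table against which to set these values.

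Dusp5, a nuclear phosphatase specific for ERK, was read near the bottom of the scale and scattered widely. Controls 1 to 8 gave 9.9, 47.7, 29.3, 13.7, 23.4, 8, 33.7 and 23.2 units, and heterozygous hearts 1 to 7 gave 16.7, 73.9, 19.7, 69.9, 11.7, 8.6 and 55. Heterozygous hearts 2, 4 and 7 were above every control and the other 4 lay among the controls. Heart 2 was also among the highest for Dusp4, while hearts 1 and 5, high for Dusp4, lay among the controls for Dusp5. The ratio was 1.32, and its 95% interval of 0.600 to 2.89 (limma adjusted p = 0.770) spans both directions. No control array and 1 heterozygous array exceeded its own median.

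**Figure D2:**
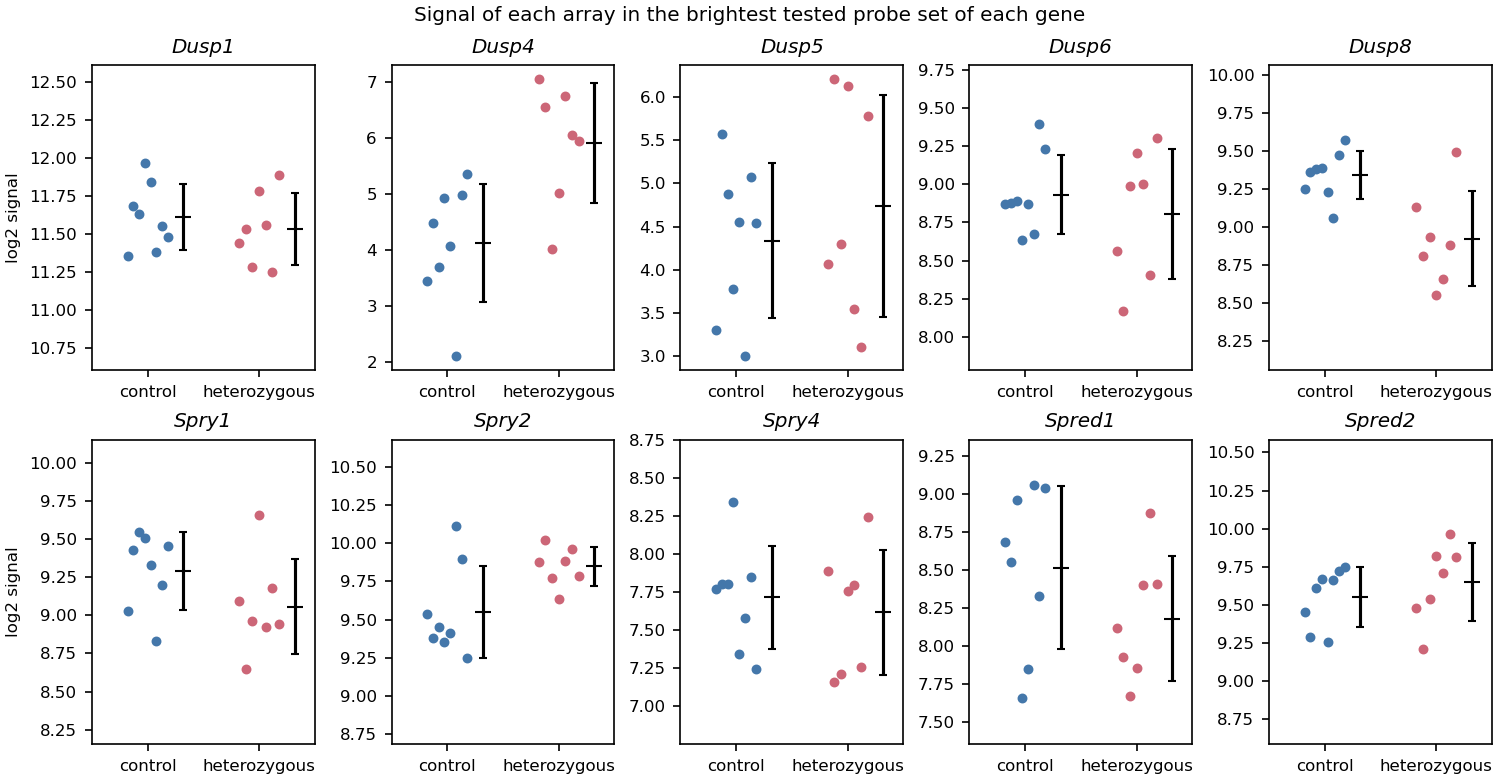
Log2 signal (vertical axis, scale differing between panels but spanning at least 2 log2 units) of the brightest tested probe set of each of the 10 genes, 1 point per array in order of its number within the group, with the mean and SD beside each group. For Dusp4, 5 of 7 heterozygous arrays lie above every control; for Dusp8, 5 of 7 lie below every control; for Spry2, all 7 lie above 6 of the 8 controls.

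Dusp6, the cytoplasmic ERK phosphatase whose transcript follows ERK activity closely in many tissues, had a difference smaller than the spread between hearts. Controls gave 469.1, 469.8, 474, 397.1, 467.7, 408.7, 672.5 and 601.9 units, and heterozygous hearts 378.7, 288.1, 508, 589.5, 513.4, 339.7 and 633.1. The heterozygous hearts spread to lower values, with hearts 1, 2 and 6 below every control, but the other 4 lay inside the control range. The ratio was 0.918 with a 95% interval of 0.691 to 1.22 (limma adjusted p = 0.803). With arrays centred on their medians, its log2 difference changed from -0.12 to 0.08.

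Dusp8, a phosphatase of JNK and p38 found in brain, heart and muscle, gave different answers in its 3 tested probe sets. The brightest gave 608.1, 658.2, 667.8, 670.5, 599.8, 533.8, 710.2 and 759.5 units in controls and 561.5, 449.2, 489.5, 376.1, 403.5, 471.4 and 720.2 in heterozygous hearts. Heterozygous hearts 2 to 6 lay below every control, heart 1 lay within the control range, and heart 7 was as high as the highest controls. Mean log2 signals were 9.34 ± 0.16 (SD, n = 8) and 8.92 ± 0.31 (SD, n = 7), a ratio of 0.750 (95% interval 0.600 to 0.936) with limma's adjusted p = 0.237. The log2 difference of -0.42 was -0.21 after centring arrays on their median, and 0.16 with the atrial mean as a covariate. The second probe set pointed the other way, at a ratio of 1.35 (95% interval 0.793 to 2.29), and the weakest stood at 0.593 (0.226 to 1.56). That weakest one split the controls: controls 1 to 5 gave 98.9 to 193.8 units and controls 6 to 8 gave 18.5 to 20.3. The heterozygous hearts ran from 13.5 to 89.1 units.

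Of the Sprouty genes, which encode membrane-bound inhibitors of the path from growth factor receptors to RAS and RAF, Spry1 and Spry2 had strong signals. Spry1 gave 523.1, 689.1, 750, 728.7, 643.7, 454.8, 588 and 701.3 units in controls and 547.2, 401.7, 499, 808.7, 484.8, 579.2 and 491.7 in heterozygous hearts. Only heterozygous heart 4 was above the control median, and it was the highest of all 15. The ratio was 0.851 (95% interval 0.666 to 1.09; limma adjusted p = 0.539).

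Spry2 leaned the other way from Spry1. Its brighter probe set gave 743.8, 664.4, 699.5, 653.1, 680.8, 1109.4, 953.3 and 608.4 units in controls and 941.3, 1040.9, 876.1, 794.2, 945.8, 997.8 and 882.5 in heterozygous hearts. All 7 heterozygous hearts lay above controls 1 to 5 and 8, while controls 6 and 7 were as high as they. Mean log2 signals were 9.55 ± 0.30 (SD, n = 8) and 9.85 ± 0.13 (SD, n = 7), a ratio of 1.23 (95% interval 0.989 to 1.53; limma adjusted p = 0.369). Control 6, the highest of all 15 arrays for Spry2, also had the highest atrial marker mean of the controls, at a log2 of 8.57, while control 7 had 7.50 beside a control mean of 7.58. Without control 6 the log2 difference of 0.30 was 0.38 (limma adjusted p = 0.251), and with the atrial mean as a covariate it was -0.05 (limma adjusted p = 0.982). After centring arrays on their median it was 0.51, with the lowest adjusted p of its alternatives (limma adjusted p = 0.186). The atrial mean itself differed between the groups, so that fit cannot tell apart genotype and atrial marker signal. The weaker Spry2 probe set had a ratio of 1.43 (95% interval 0.833 to 2.47), in the same direction.

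Spry4, which also acts below growth factor receptors, had 4 probe sets, of which 2 were too weak to test, with no signal above 30.8 units. The brighter tested one ran from 151.2 to 324.1 units in controls (median 220.15) and from 143 to 302.4 in heterozygous hearts (median 216.5), so the groups coincided. Its ratio was 0.934 (95% interval 0.692 to 1.26; limma adjusted p = 0.854), and the log2 difference of -0.10 was 0.11 after centring. The second ran from 99 to 233.2 units (median 128.45) and from 72.3 to 129.6 (median 105.4). There, 4 controls lay above every heterozygous heart and 1 of 7 heterozygous hearts lay above the control median. Its ratio was 0.760 (95% interval 0.582 to 0.993; limma adjusted p = 0.333). The log2 difference of -0.40 was -0.19 after centring arrays on their median and -0.24 after quantile normalization (limma adjusted p = 0.726 and 0.669).

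Spred1 and Spred2 encode Sprouty-related proteins that bring the RAS inactivator neurofibromin to the membrane. Of 8 probe sets of Spred1, 7 were tested, 3 above and 4 below 0, with log2 differences from -0.38 to 0.52 and adjusted p of at least 0.410. The brightest ran from 202 to 532.6 units in controls (median 393.5) and from 203.9 to 470.1 in heterozygous hearts (median 277.9). Only 1 of 7 heterozygous hearts exceeded that control median, but the ranges nearly coincided, and the ratio was 0.792 (95% interval 0.548 to 1.15; limma adjusted p = 0.558). The untested probe set stayed between 4 and 38.8 units.

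All 5 probe sets of Spred2 were tested, 3 above and 2 below 0, with adjusted p of at least 0.349. The brightest ran from 611.2 to 860.8 units in controls (median 796.2) and from 591.1 to 998.2 in heterozygous hearts (median 836.3), a ratio of 1.07 (95% interval 0.864 to 1.32; limma adjusted p = 0.795). Heterozygous hearts 4, 6 and 7 were above every control and heart 2 was below every control. The 4 dimmer probe sets stood at ratios of 1.41, 0.981, 0.513 and 2.11. The last of these came from signals of 5.9 to 71.7 units that exceeded no array's median.

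These disagreements within a gene had a counterpart in how probe sets varied from array to array. With the group means removed, the 36 pairs of tested probe sets of the same member had a median Spearman rho of 0.17 over 15 arrays, from -0.53 to 0.58, and 0 of 36 passed by either coefficient (permutation within groups, 100000 resamples, adjusted over 36 pairs), with 1 at an unadjusted p under 0.05 for rho. In the whole table the 24861 such pairs had a median rho of 0.09, and 0.27 for the 4539 pairs whose probe sets both had a mean log2 signal above 8. Pairs of Spred2 had a median of -0.26, those of Spred1 0.27, and the single pairs of Spry2 and Spry4 had -0.31 and 0.

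Pairs of different members behaved alike. Of 45 pairs, each gene taken by its brightest probe set, 30 had a rho above 0, with a median of 0.11. None passed after adjustment over the 45, and 4 had an unadjusted permutation p under 0.05 for rho. The strongest was negative. Spry1 was low where Spry2 was high, with Pearson's r = -0.71 (permutation p = 0.00234, adjusted p = 0.105) and Spearman's rho = -0.76 (permutation p = 0.00304, adjusted p = 0.137), and r was -0.56 without the 2 arrays farthest from the median of Spry1. Dusp1 went with Dusp5 at r = 0.55 (permutation p = 0.0451, adjusted p = 0.642) and rho = 0.58 (permutation p = 0.0380, adjusted p = 0.476), and r was 0.68 without the 2 arrays farthest from the median of Dusp1. Dusp1 went with Spry4 at r = 0.60 (permutation p = 0.0279, adjusted p = 0.627) and rho = 0.57 (permutation p = 0.0371, adjusted p = 0.476), but r was 0.25 without those 2 arrays, so that relation rests on them. Dusp4 and Dusp8 had r = 0.40 (permutation p = 0.165, adjusted p = 0.693) and rho = 0.54 (permutation p = 0.0423, adjusted p = 0.476), and r was 0.35 without the 2 arrays farthest from the median of Dusp4. Dusp4 and Dusp6 did not go together, at r = -0.04 (permutation p = 0.899) and rho = 0.04 (permutation p = 0.886).

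**Figure D3:**
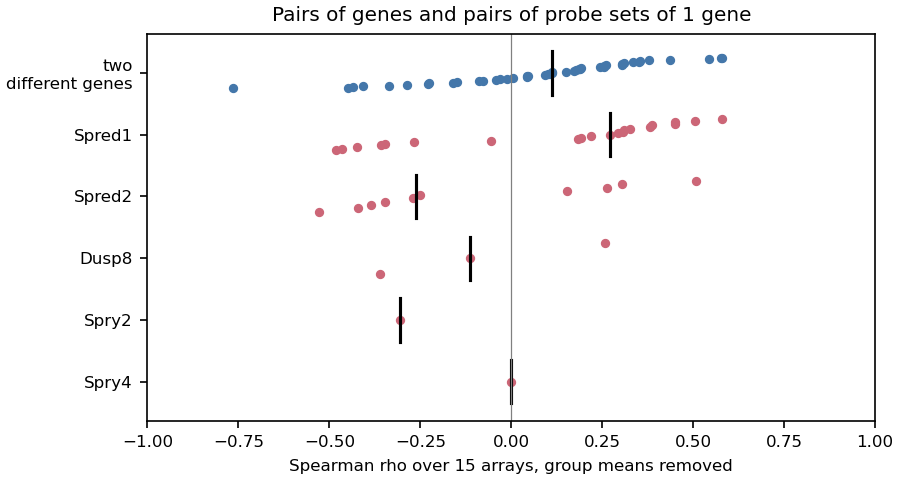
Spearman rho over 15 arrays, with group means removed (horizontal axis), for the 45 pairs of different member genes (blue) and for pairs of tested probe sets of the same gene (red, 1 row per gene); black bars are medians. The probe sets of the same gene scatter about as widely as those of different genes, from -0.53 to 0.58 against -0.76 to 0.58.

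As a description of likeness, the named genes whose brightest probe sets followed a member most closely over the 15 arrays, group means removed, were sought among 16626 genes. For Dusp4 they were Glod4, Gnao1 and Ddx39a, with a rho of 0.86, 0.84 and 0.83. For Dusp6 they were Fcer1a, Tra2b and Prima1, with 0.89, 0.86 and 0.86. For Spry2 they were Adgrg6, Rab44 and Arhgap11a, with 0.82, 0.81 and 0.81. Some of these signals were weak: group geometric means were 19.2 and 17.3 units for Fcer1a and 22.7 to 60.3 units for the 3 genes alike to Spry2. No member of the 10 was among them. All share the same arrays, and the best of so many genes is high by selection.

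The other listed genes, 151 of them tested, gave 1 call. They are called pathway genes here, although the atypical phosphatases were listed by family. In 7 lists of related genes, each gene taken by its brightest tested probe set, Dusp23, an atypical dual-specificity phosphatase, fell. Its signals ran from 311.6 to 653.1 units in controls (median 448.35) and from 113.2 to 294.4 in heterozygous hearts (median 162.4), without overlap. The ratio was 0.401, a log2 difference of -1.32 with a standard error of 0.23 (limma adjusted p = 0.0298). It passed in 15 of 26 alternative fits. Among the fits in which it did not pass were those without control arrays 1, 2, 3, 4, 6 and 7 and heterozygous array 4 in turn (adjusted p = 0.0675, 0.0652, 0.0615, 0.0560, 0.0554, 0.0512 and 0.0622). Nor did it pass with centring on the array median (adjusted p = 0.0774) or with the blood or the atrial mean as a covariate (limma adjusted p = 0.789 and 0.600). With the blood mean its log2 difference was -1.65, and with the atrial mean -0.87. Each of these covariate fits called 0 probe sets in the whole table. Dusp26 of the same list had a ratio of 0.392 at weak signals (adjusted p = 0.231), and Dusp12 one of 1.51 in its brightest of 3 probe sets (adjusted p = 0.107), the lowest of which differed by -1.15. In all, 0 of the 18 tested genes of that list passed higher and 1 lower, and the list's median difference was -0.05, beside -0.08 over all 16627 named genes tested, of which 0.289% passed.

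Among the 6 tested relatives of the members, 0 passed. Dusp7, a cytoplasmic ERK phosphatase like Dusp6, had a ratio of 1.57 in its brightest probe set (limma adjusted p = 0.141), while 2 of its 3 probe sets were below 0. Dusp2, an inducible nuclear phosphatase, stood at 0.812 and Spred3 at 0.787. Of 22 other negative regulators of RAS and ERK, 0 passed and 11 were above 0. They included the RAS inactivator gene Nf1, the partner of the Spred proteins, at 0.704 (limma adjusted p = 0.262). Rasa2, which also speeds RAS inactivation, stood at 1.49 and the RAF inhibitor Pebp1 at 1.20 (limma adjusted p of 0.291 and 0.432). The other tested probe set of Pebp1 differed by -0.11 in log2.

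**Figure D4:**
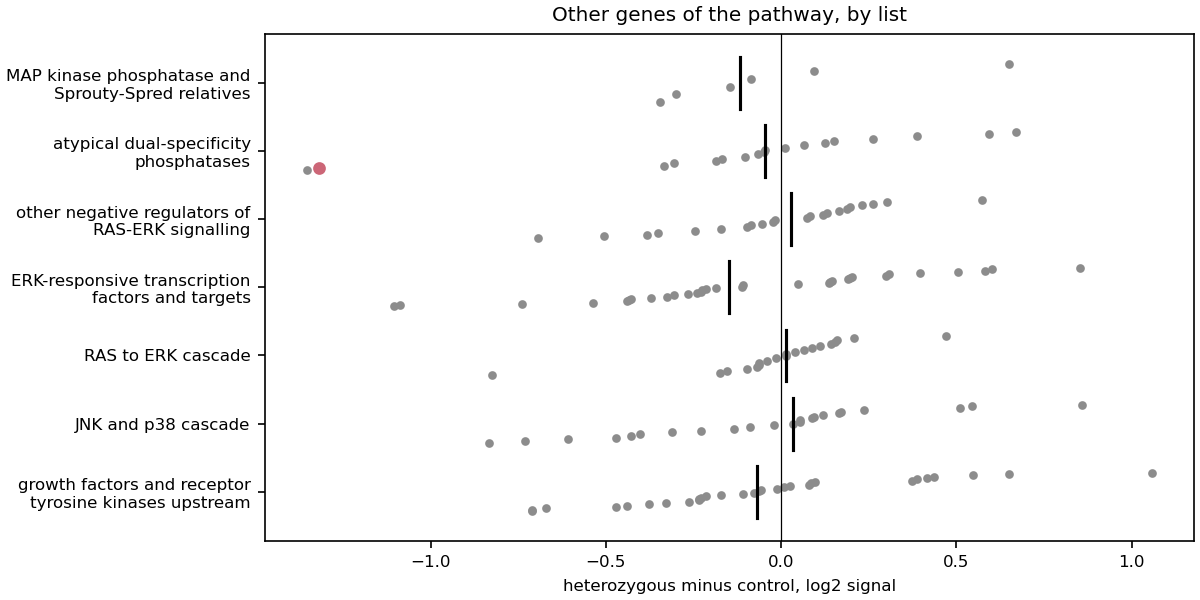
Difference between heterozygous and control hearts in log2 signal (horizontal axis) for the tested genes of 7 pathway lists, 1 point per gene by its brightest probe set; black bars are list medians and the red point is Dusp23, the gene that passed the test. List medians lie between -0.15 and 0.03.

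Genes that respond to ERK lay on both sides of the controls. Of 32 tested ERK-responsive transcription factors and targets, 0 passed, 14 were above 0 and the median difference was -0.15. The early growth response factor Egr1 stood at 1.80, the nuclear receptor Nr4a1 at 0.599 and the ephrin receptor Epha2 at 0.465 (limma adjusted p of 0.126, 0.245 and 0.300). Egr1, an immediate early gene, ran from 240.8 to 410.3 units in controls and from 428 to 1129.6 in heterozygous hearts, so that every heterozygous heart lay above every control, as in 0.468% of all probe sets in either direction. It passed with a trended and robust prior (limma adjusted p = 0.0390) and in no other alternative. Nr4a1, also an immediate early gene, ran from 652.9 to 1257.8 units and from 216.1 to 919, with overlap, and passed in none. In the RAS to ERK cascade 0 of 20 tested genes passed, with 11 above 0. The phosphatase Ptpn11, which relays receptor signals to RAS, stood at 1.39, the scaffold gene Ksr2 at 0.564 and the ERK-activating kinase gene Map2k1 at 1.11. For Ptpn11, 1 of 3 tested probe sets was above 0, and the lowest differed by -0.38 in log2. In the JNK and p38 cascade 0 of 23 passed, with Mapk10 at 1.81 in its brightest probe set (another differed by -1.29 in log2), Mapkapk3 at 0.722 and Map3k5 at 1.46. Of 30 growth factors and receptors upstream, 0 passed, with Pdgfra at 1.57, Kdr at 1.46 and Egf at 0.611. Only 1 of the 3 tested probe sets of Pdgfra was above 0, and the lowest differed by -0.38 in log2. Pdgfra marks fibroblasts and Kdr endothelium, and each is itself a member of the marker list for that cell type. Those lists differed by 0.39 and 0.20 in mean log2 signal (exact permutation tests, adjusted p = 0.0798 and 0.0822). These means contain the 2 genes and so are not independent of their ratios. The part of these cells in the ratios was not tested.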

How the data were processed

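Total RNA of 15 whole hearts was hybridised to Affymetrix arrays, 1 per mouse, and the authors deposited 1 intensity per probe set and array. The submitters' processing notes name GCRMA, but the deposited intensities are linear, to 1 decimal, with a 2% trimmed mean of 250 units on each array, so the summary method stays unclear. From the 45101 probe sets, log2 intensities were taken without further scaling. The 38870 probe sets above a log2 of 4 on at least 7 arrays were fitted with limma 3.58.1 (R 4.3.3; lmFit, eBayes), 7 heterozygous against 8 control arrays, with Benjamini-Hochberg adjustment over all of them and a threshold of 0.05. The platform annotation gave 1 gene symbol to 34958 probe sets, several to 932 and none to 9211. Single values per array were compared by exact two-sided permutation tests (scipy 1.17.1), and correlations by 100000 permutations. The fit was tested on simulated data. The members, gene lists, motifs and marker lists were chosen with earlier results of these data known. All member probe sets were described, with up to 3 genes of smallest p per pathway list, every gene passing, and the 3 genes most alike to Dusp4, Dusp6 and Spry2. Listed genes without a probe set of 1 symbol were not analysed here. Alternatives were other filters, scalings, weights, priors, covariates, a replicate block and leaving out each array.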

Additional observations from a re-analysis of the deposited data

Results flagged for a closer look

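Of 48 groups of member signals, 2 had a sample far from the others, where chance gives about 1 in 20. Both belong to dimmer probe sets of Spred1. In one (1460116_s_at), heterozygous heart 2 gave 138.2 units, below the next heart at 173.2 and the highest at 192.6. In the other (1452911_at), control heart 5 gave 16.1 units, below the next at 84.5 and the highest at 200.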

How the results depend on the processing

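The count of member probe sets past the threshold was 0 in all 26 alternatives, with 1 to 6 at an unadjusted p under 0.05. Of 621 alternative member values, 574 kept their direction and 47, in 20 probe sets, reversed, none past the threshold. The cause was not tested. The table-wide count of 98 was 192 with a filter at a log2 of 6, 287 with low signals set to 6, 65 after centring and 65 after quantile normalization, 312 with a trended and robust prior, and 0 with the blood or the atrial covariate (2053 and 3495 unadjusted). Without 1 array it ran from 17 to 150. The count of 1 pathway gene was 3 with low signals set to 6 (Dusp23, Pdgfra and Dusp12), 5 with the trended prior (Dusp23, Pdgfra, Dusp7, Egr1 and Mapk10), 0 after centring, 0 with either covariate, and 0 to 2 without 1 array (Pdgfra was gained without heterozygous array 2 and Dusp7 without heterozygous array 5). Same-numbered control and heterozygous arrays correlated at -0.06 to 0.06. For controls 4 and 7, 0 other heterozygous arrays correlated more, and for control 5 it was 5. These values cannot decide whether the numbers mark a pairing. With the replicate block the table-wide count was 1 and the pathway count 0 (Dusp23 at a limma adjusted p of 0.168). In that fit the log2 difference of the Spred2 probe set 1436892_at reversed to 0.018. Its limma adjusted p was at least 0.780 in all its alternatives.

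Reversed log2 differences after centring were 0.13 (Dusp1), 0.081 (Dusp6), 0.11 (Spry4 1440867_at), 0.14 and 0.064 (Spred1 1428777_at and 1423162_s_at) and 0.18 (Spred2 1436892_at). After quantile normalization the last 3 were 0.013, 0.036 and 0.13. Spred1 1423161_s_at was -0.031 with array weights, and Spry4 1440867_at was 0.0039 with the Actb ratio. With the blood covariate the values were -0.74 (Dusp8 1418714_at), 0.010 (Spry1), 0.024 (Spry4 1440867_at), 0.19 and -0.029 (Spred1 1423160_at and 1423161_s_at), and 0.20, 0.32 and -0.35 (Spred2 1436892_at, 1423001_at and 1441802_at). With the atrial covariate they were 0.041 (Dusp1), 0.16 and 1.79 (Dusp8 1428864_at and 1447346_s_at), -0.046 (Spry2 1436584_at), 0.023 (Spry4 1440867_at), 0.29, -0.11 and -0.025 (Spred1 1443652_x_at, 1460116_s_at and 1452911_at), and -0.027, -0.38 and 0.72 (Spred2 1434403_at, 1441415_at and 1436892_at). Without 1 array, Spred2 1436892_at ran from -0.20 to 0.13, and Spred1 1423161_s_at from -0.078 to 0.10, 1428777_at from -0.17 to 0.024 and 1460116_s_at from -0.0086 to 0.19. Weak signals limit Dusp4 and Dusp5 most: with the filter at a log2 of 6, neither was tested, nor was Spred2 1441802_at.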
